A study of Mus musculus with 7 samples.

Results

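Antioxidant defence in G1E, a mouse erythroid cell line, was described through 40 genes of peroxide, glutathione and thioredoxin chemistry and of its regulator NRF2, which were taken by symbol from a fixed list. A gene counted as measured where a probeset carried exactly 1 annotated symbol, and where a gene had several such probesets the one with the highest mean over the 7 arrays stood for it. By that rule 36 of the 40 genes were measured, among 22180 genes in all. Prdx1 had 3 probesets, each annotated with several symbols, and Prdx5, Prdx6 and G6pdx were not listed by the annotation used here, so these 4 genes have no value.

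G1E cells are immature erythroid cells grown in culture that lack functional GATA1, the transcription factor that drives red cell maturation. Total RNA was hybridised to Affymetrix Mouse Gene 2.0 ST arrays, 3 from controls with wild-type Lockd (a long noncoding RNA gene downstream of Cdkn1b) and 4 from a CRISPR/Cas9 deletion of Lockd. Neither group is labelled with a drug, a time point or a differentiation step, and the treatment label names CRISPR/Cas9 for the control arrays too without saying how those cells were made. The samples are described as clones of 1 cell line, and nothing says which arrays come from separate clones or cultures, so p-values measure the spread between these arrays, which may be technical.

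Peroxide that forms beside heme and iron is removed by catalase, by glutathione peroxidases and by peroxiredoxins, which draw their electrons from glutathione and thioredoxin and, behind both, from NADPH. NRF2, encoded by Nfe2l2, is held at low levels by the ubiquitin ligase adaptor KEAP1 and, when released, pairs with small MAF proteins on antioxidant response elements to switch on many of these enzymes. BACH1 pairs with the same MAF partners on related elements as a repressor until heme binds it, and NF-E2, whose large subunit is encoded by Nfe2, uses similar elements at erythroid genes.

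The labelled deletion was visible in the target RNA. Lockd read 7.89, 8.04 and 7.80 log2 units on the control arrays and 5.09, 5.15, 4.17 and 5.15 on the deletion arrays. The difference was -3.02 (SE 0.23, adjusted p = 0.0162, limma with Benjamini-Hochberg adjustment). The deletion readings of Lockd were dim, below the column medians of the arrays, 5.42 to 5.46. Cdkn1b, the neighbouring cell-cycle inhibitor gene, fell by 1.14 (SE 0.10, adjusted p = 0.0251), and these were the only 2 genes called at an adjusted p under 0.05, which is 0.00902% of the genes tested. Both calls were lost, with the differences kept, when all probesets were tested (adjusted p = 0.0991 for Lockd and 0.141 for Cdkn1b, limma) and on leaving out any 1 of control replicates 1 to 3 or deletion replicates 1 and 4, and that of Cdkn1b also without deletion replicate 3. Over the 7 leave-outs the Lockd difference ran from -3.10 to -2.78 and its adjusted limma p up to 0.106, and the Cdkn1b difference from -1.21 to -1.08 and its adjusted p up to 0.189. The erythroid regulator Klf1 read between 10.44 and 10.65 on the 7 arrays. The Gata1 probeset read between 9.10 and 9.41, and whether it lies in the part of the gene that is disrupted in G1E cells was not tested. The arrays correlated with each other at 0.993 to 0.996 over all genes.

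The elements that NRF2, BACH1 and NF-E2 bind share the core TGACNNNGC, in which N is any base. The first 4 of the following stretches show it where it stood before the start of genes on which the results turn, and the last 2 show a related form, TGAGNNNGC. Of the 36 measured genes 33 had a promoter entry in the RefSeq table (build GRCm38.p6, 250 bases before to 50 after each start, matched by symbol), and Nfe2, Gclc and Gsr had none. Letters in capitals mark the match, each stretch runs 5′ to 3′ on the strand of its gene, and both strands were searched.
Gclm: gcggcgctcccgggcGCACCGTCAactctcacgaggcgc
Mafg: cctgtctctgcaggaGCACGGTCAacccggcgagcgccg
Nfe2l2: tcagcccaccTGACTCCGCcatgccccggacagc
Txnrd1: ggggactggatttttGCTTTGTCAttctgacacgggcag
Srxn1: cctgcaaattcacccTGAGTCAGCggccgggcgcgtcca
Gstp1: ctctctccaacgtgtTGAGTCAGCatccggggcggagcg
The Gclm match reads TGACGGTGC on the strand opposite the gene, in the stretch at chr3:122245408-122245446 (plus strand), 134 bases before the start. Here and below, coordinates cover the whole stretch and name the strand of its gene, and distances count from its first capital letter. The Mafg match reads TGACCGTGC on the opposite strand at chr11:120633746-120633784 (minus strand), 222 bases before the start. In Nfe2l2 the match TGACTCCGC lies on the gene's own strand at chr2:75704880-75704913 (minus strand), 240 bases before the start. Txnrd1 holds TGACAAAGC on the opposite strand at chr10:82859099-82859137 (plus strand), 92 bases before the start.

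The Srxn1 and Gstp1 stretches hold TGAGTCAGC, a related form that was added after the first search and that contains TGAGTCA, the core bound by AP-1. It lies at chr2:152105464-152105502 (plus strand) in Srxn1, 45 bases before the start, and at chr19:4037963-4038001 (minus strand) in Gstp1, 74 bases before it, in both on the gene's own strand. TGACNNNGC was found in 10 of the 33 promoters (30.3%), namely those of Nfe2l2, Mafk, Mafg, Sod1, Srxn1, Txnrd1, Gclm, Mgst1, Pgd and Blvra, beside 14.9% of the promoters of 16990 genes tested and 12.4% of 32851 promoter windows. TGAGNNNGC was found in 5 of the 33 (15.2%), those of Nfe2l1, Srxn1, Txn2, Gstp1 and Taldo1, beside 20.9% of the genes tested. A match is a run of letters and not a measured binding site, and a promoter without one says nothing about the factor.

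No antioxidant gene passed the test. Of the 36 measured genes 0 had an adjusted p under 0.05 in the limma fit, where the adjusted p of each was 0.999. At an unadjusted p under 0.05 there were 2 (5.56%), 1 higher and 1 lower in the deletion arrays, while 4.61% of all genes reached that level, 2.24% higher and 2.37% lower. The groups did not overlap for 2 of the 36 (5.56%), beside 5.19% of all genes, so both counts lay near the background.

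The differences were small as well as unsupported. They ran from -0.21 to 0.15 log2 units with a median of 0.014, while the median of all genes was 0.005. The deletion mean was the higher one for 19 of the 36 (52.8%), beside 52.2% of all genes. That share depended on the scaling, since centring each array on its median left 16 of the 36 and 42.1% of all genes higher and turned the median of the members to -0.0096. For 35 of the 36 the 95% interval of the difference lay within 1.5-fold either way, a bound that 94.8% of all genes met. The exception was Nqo1. The difference was under 0.1 in size for 28 of the 36 and for 67.2% of all genes, and only Glrx lay outside the 5th to 95th percentile of all genes (-0.20 to 0.19).

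**Figure D1:**
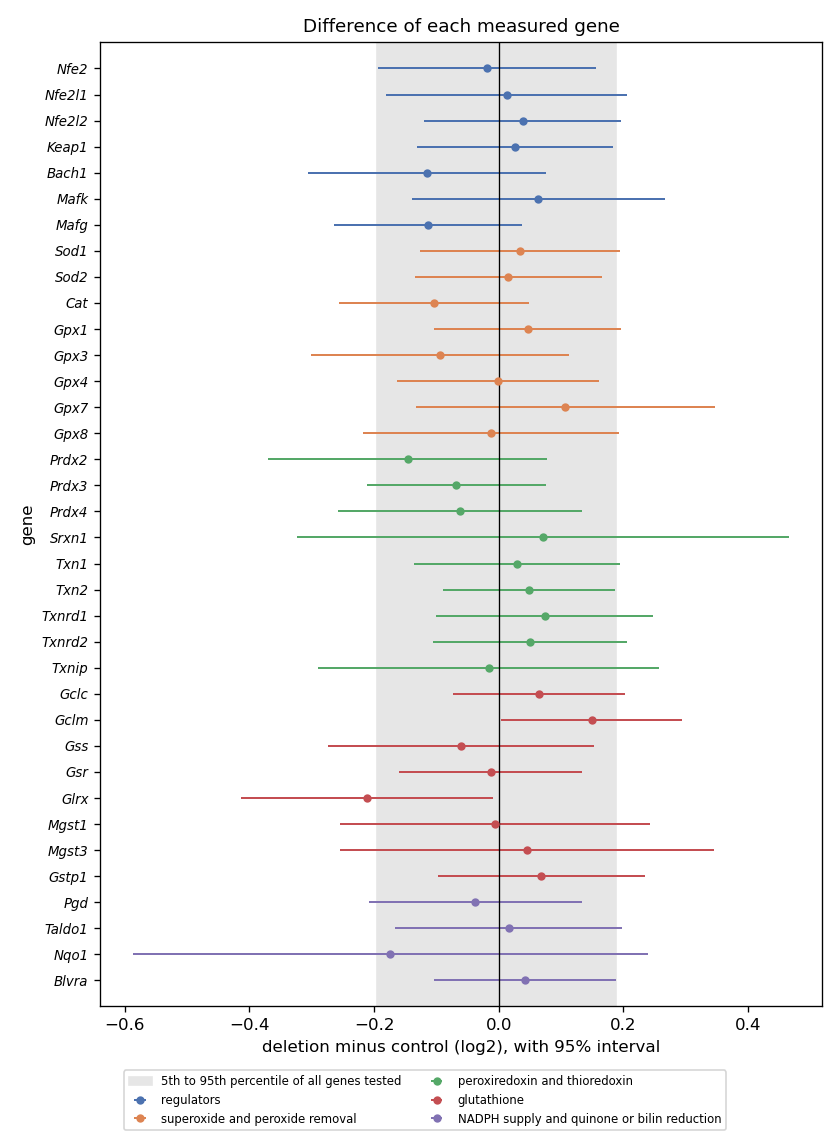
Difference of each measured antioxidant gene between Lockd deletion and control arrays (x axis, log2; points, limma estimate; bars, 95% interval; colours, class), with the 5th to 95th percentile of all genes tested in grey. All 36 intervals but those of Gclm and Glrx cross 0, and that of Nqo1 is the longest.

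Of the 7 regulators, the factors that act on many of the enzyme genes and their inhibitor, none had an unadjusted p under 0.05, 4 read higher and 3 lower in the deletion arrays, and their median difference was 0.013. Nfe2l2, which encodes NRF2, read 10.61, 10.72 and 10.78 on the control arrays and 10.67, 10.75, 10.79 and 10.74 on the deletion arrays, a difference of 0.038 (SE 0.07). The deletion arrays lay inside the range of the controls except for 1 array just above it, and the 95% interval ran from -0.12 to 0.20. Keap1, its inhibitor, read 9.10, 9.26 and 9.28 in the controls and 9.26, 9.28, 9.20 and 9.23 in the deletion arrays, a difference of 0.027 (SE 0.07). A second, dimmer Keap1 probeset differed by -0.027 (SE 0.11), so the 2 probesets of the inhibitor differed in sign and both were small beside their errors.

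Bach1, the heme-responsive repressor, read 7.96, 7.72 and 7.88 on the control arrays and 7.69, 7.75, 7.86 and 7.65 on the deletion arrays, -0.12 (SE 0.08) apart on the log2 scale. Deletion replicates 1 and 4 lay below the lowest control and the other 2 deletion arrays inside the control range, and without control replicate 1 the difference was -0.06. Mafg, a small MAF partner shared by NRF2 and BACH1, read 7.66, 7.69 and 7.68 in the controls and 7.46, 7.62, 7.61 and 7.55 in the deletion arrays, a difference of -0.11 (SE 0.07) with an unadjusted limma p of 0.121. Its groups did not overlap: the 3 controls were close together and all 4 deletion arrays lay below them. Mafk, the second small MAF gene among the members, read 9.14, 9.39 and 9.31 in the controls and 9.21, 9.39, 9.47 and 9.30 in the deletion arrays. Its difference of 0.063 (SE 0.09) went the other way.

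Nfe2, the erythroid NF-E2 subunit, read 7.65, 7.72 and 7.75 in the controls and 7.55, 7.78, 7.75 and 7.68 in the deletion arrays (difference -0.019, SE 0.08). Deletion replicate 1 was the lowest of its 7 arrays and deletion replicate 2 the highest. Nfe2l1, which encodes the related factor NRF1 that controls proteasome genes, read 8.86, 9.06 and 8.89 in the controls and 8.87, 9.08, 8.997 and 8.86 in the deletion arrays (difference 0.013, SE 0.08). For both factors the range of the deletion arrays covered that of the controls.

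Genes for superoxide and peroxide removal were balanced, with 4 of 8 higher, 4 lower, no unadjusted p under 0.05 and a median difference of 0.0073. Cat encodes catalase, a heme enzyme that splits hydrogen peroxide directly. It read 12.57, 12.47 and 12.53 on the control arrays and 12.33, 12.48, 12.44 and 12.43 on the deletion arrays, a difference of -0.10 (SE 0.07) with an unadjusted limma p of 0.158. Deletion replicate 2 lay inside the control range and the other deletion arrays below it. Gpx7, an endoplasmic reticulum peroxidase, read 5.86, 5.54 and 5.80 in the controls and 5.99, 5.71, 5.92 and 5.75 in the deletion arrays, a difference of 0.11 (SE 0.11). That value rested on the low control replicate 2, without which it was 0.01.

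The superoxide dismutases turn superoxide into peroxide, Sod1 in the cytosol and Sod2 in mitochondria. Sod1 read 11.67, 11.85 and 11.76 in the controls and 11.83, 11.72, 11.80 and 11.83 in the deletion arrays (difference 0.034, SE 0.07). Sod2 read 11.64, 11.62 and 11.50 in the controls and 11.59, 11.62, 11.65 and 11.56 in the deletion arrays (difference 0.015, SE 0.07). For both genes the groups overlapped and the difference was smaller than its standard error.

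Among the remaining glutathione peroxidases, Gpx1, the cytosolic enzyme of red cells, read 12.50, 12.53 and 12.56 in the controls and 12.64, 12.52, 12.63 and 12.52 in the deletion arrays (difference 0.046, SE 0.07). Gpx4 reduces lipid peroxides in membranes and had the smallest difference of all members measured, -0.00083 (SE 0.07), from 8.81, 8.84 and 8.96 in the controls and 8.92, 8.92, 8.77 and 8.88 in the deletion arrays. Neither Gpx1 nor Gpx4 separated the groups. The secreted enzyme gene Gpx3 read 5.08, 4.95 and 4.89 in the controls and 4.71, 4.89, 4.87 and 5.04 in the deletion arrays (difference -0.094, SE 0.09), and Gpx8, another enzyme of the endoplasmic reticulum, read 5.00, 5.06 and 5.12 in the controls and 5.04, 4.88, 5.23 and 5.04 in the deletion arrays (difference -0.012, SE 0.09). Both probesets were dim, below the column medians of the arrays, which were 5.42 to 5.46.

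**Figure D2:**
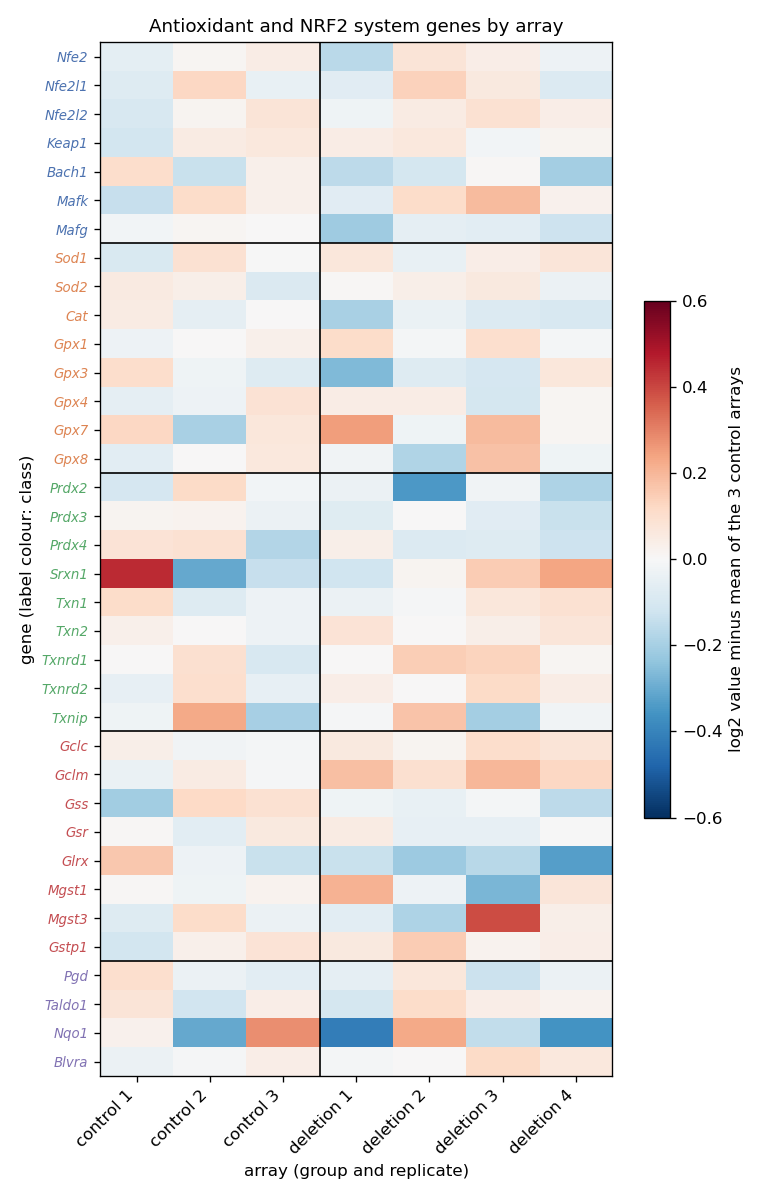
Values of the 36 measured antioxidant genes on each array (columns; rows, genes grouped by class), as log2 value minus the mean of the 3 control arrays, red above and blue below it. The strongest colours fall on control arrays of Srxn1, deletion arrays of Mgst3 and Prdx2, and arrays of Nqo1 in both groups. Among others, Gclm is red and Glrx and Mafg are blue on all 4 deletion arrays.

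Of the peroxiredoxin and thioredoxin genes 9 of 12 were measured, 5 higher and 4 lower in the deletion arrays, with a median difference of 0.030 and no unadjusted p under 0.05. Peroxiredoxins reduce peroxide with a reactive cysteine, and Prdx2 encodes one of the most abundant proteins of the red cell. Prdx2 read 10.76, 10.97 and 10.85 on the control arrays and 10.83, 10.51, 10.84 and 10.68 on the deletion arrays, a difference of -0.15 (SE 0.10) with an unadjusted limma p of 0.173. Deletion replicates 2 and 4 lay below every control and the other deletion arrays inside the control range, and without deletion replicate 2 the difference was -0.08. The mitochondrial Prdx3 read 11.72, 11.72 and 11.67 in the controls and 11.63, 11.70, 11.64 and 11.57 in the deletion arrays (difference -0.068, SE 0.06), and Prdx4, which acts in the endoplasmic reticulum, read 7.31, 7.32 and 7.05 in the controls and 7.27, 7.15, 7.15 and 7.10 in the deletion arrays (difference -0.062, SE 0.09). All 3 measured peroxiredoxins thus read lower on average in the deletion arrays, each by less than its own 95% interval could separate from 0.

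Srxn1 encodes sulfiredoxin, which restores peroxiredoxins after overoxidation and is a known NRF2 target. It was among the most variable members, at 8.48, 7.72 and 7.90 on the control arrays and 7.91, 8.05, 8.18 and 8.27 on the deletion arrays, a difference of 0.071 (SE 0.17). The control arrays alone ran from 7.72 to 8.48 and enclosed all 4 deletion values. Without control replicate 1 the difference was 0.29 with an unadjusted limma p of 0.0376, and without control replicate 2 it was -0.08.

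Thioredoxin passes electrons from NADPH, through thioredoxin reductase, to peroxiredoxins. Cytosolic Txn1 read 10.99, 10.81 and 10.85 in the controls and 10.85, 10.88, 10.95 and 10.98 in the deletion arrays (difference 0.030, SE 0.07), and mitochondrial Txn2 read 9.34, 9.30 and 9.27 in the controls and 9.39, 9.31, 9.34 and 9.38 in the deletion arrays (difference 0.049, SE 0.06). Their reductases gave the same picture of overlapping groups. Txnrd1, an NRF2 target, read 10.88, 10.97 and 10.78 in the controls and 10.88, 11.02, 11.01 and 10.89 in the deletion arrays (difference 0.074, SE 0.08), and Txnrd2 read 8.36, 8.51 and 8.36 in the controls and 8.45, 8.41, 8.52 and 8.45 in the deletion arrays (difference 0.050, SE 0.07). Txnip encodes a protein that binds and inhibits thioredoxin and follows glucose supply. It read 10.12, 10.37 and 9.95 in the controls and 10.14, 10.32, 9.94 and 10.13 in the deletion arrays, with a difference of -0.016 (SE 0.12) and a within-group SD of 0.18.

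The glutathione class held both genes with an unadjusted p under 0.05, and they went in opposite directions. Glutathione is made by glutamate-cysteine ligase, of which Gclc is the catalytic and Gclm the modifier subunit, and then by glutathione synthetase. Gclm (probeset 17402283) read 11.79, 11.88 and 11.82 on the control arrays and 12.01, 11.92, 12.03 and 11.95 on the deletion arrays. All 4 deletion arrays lay above all 3 controls, with means of 11.83 ± 0.05 (SD, n = 3) and 11.98 ± 0.05 (SD, n = 4). The difference was 0.15 (SE 0.06), or 10.9% more on the linear scale with a 95% interval of 0.307% to 22.6%, and its limma p of 0.0447 became 0.999 after adjustment. Leaving out 1 array at a time gave 0.13 to 0.17 for the difference, and the unadjusted p stayed under 0.05 in 2 of the 7 cases and rose to 0.126.

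The other subunit did not separate. Gclc read 10.48, 10.43 and 10.44 in the controls and 10.51, 10.47, 10.56 and 10.53 in the deletion arrays, a difference of 0.065 (SE 0.06) with an unadjusted limma p of 0.311. Of its 4 deletion arrays 3 lay above all controls and replicate 2 inside their range, and its within-group SD of 0.035 was the lowest of the members. Gss, the synthetase, read 8.78, 9.12 and 9.08 in the controls and 8.97, 8.95, 8.98 and 8.84 in the deletion arrays (difference -0.060, SE 0.09). The first control was its lowest array, and without it the difference was -0.17.

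Glrx encodes glutaredoxin, which removes glutathione from protein cysteines. It (probeset 17288716) read 9.73, 9.54 and 9.43 on the control arrays and 9.43, 9.35, 9.40 and 9.24 on the deletion arrays. The groups touched: control replicate 3 and deletion replicate 1 read 9.434 and 9.435, and the other 3 deletion arrays lay below all controls. The difference was -0.21 (SE 0.09), or -13.6% with a 95% interval of -25.0% to -0.623%, with an adjusted p of 0.999 in limma that stood at 0.0425 before adjustment. It was -0.13 without control replicate 1 and -0.28 without control replicate 3, with unadjusted p-values of 0.0186 to 0.172 over the 7 leave-outs, of which 2 stayed under 0.05.

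Gsr encodes glutathione reductase, which regenerates glutathione with NADPH. It read 11.85, 11.79 and 11.91 in the controls and 11.90, 11.80, 11.80 and 11.84 in the deletion arrays (difference -0.013, SE 0.06), with overlapping groups. The 3 transferase genes among the measured members attach glutathione to other molecules. Gstp1 read 10.41, 10.55 and 10.61 in the controls and 10.58, 10.68, 10.55 and 10.56 in the deletion arrays (difference 0.069, SE 0.07), and probes shared with its close copy Gstp2 were not tested. The microsomal Mgst1 read 4.92, 4.89 and 4.94 in the controls and 5.13, 4.89, 4.65 and 4.99 in the deletion arrays (difference -0.0065, SE 0.11), and Mgst3 read 7.26, 7.44 and 7.30 in the controls and 7.27, 7.15, 7.72 and 7.37 in the deletion arrays (difference 0.045, SE 0.13). Mgst3 was high on deletion replicate 3 alone and Mgst1 lowest on the same array. The Mgst1 probeset was dim, with every value below the column medians of the arrays, 5.42 to 5.46.

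**Figure D3:**
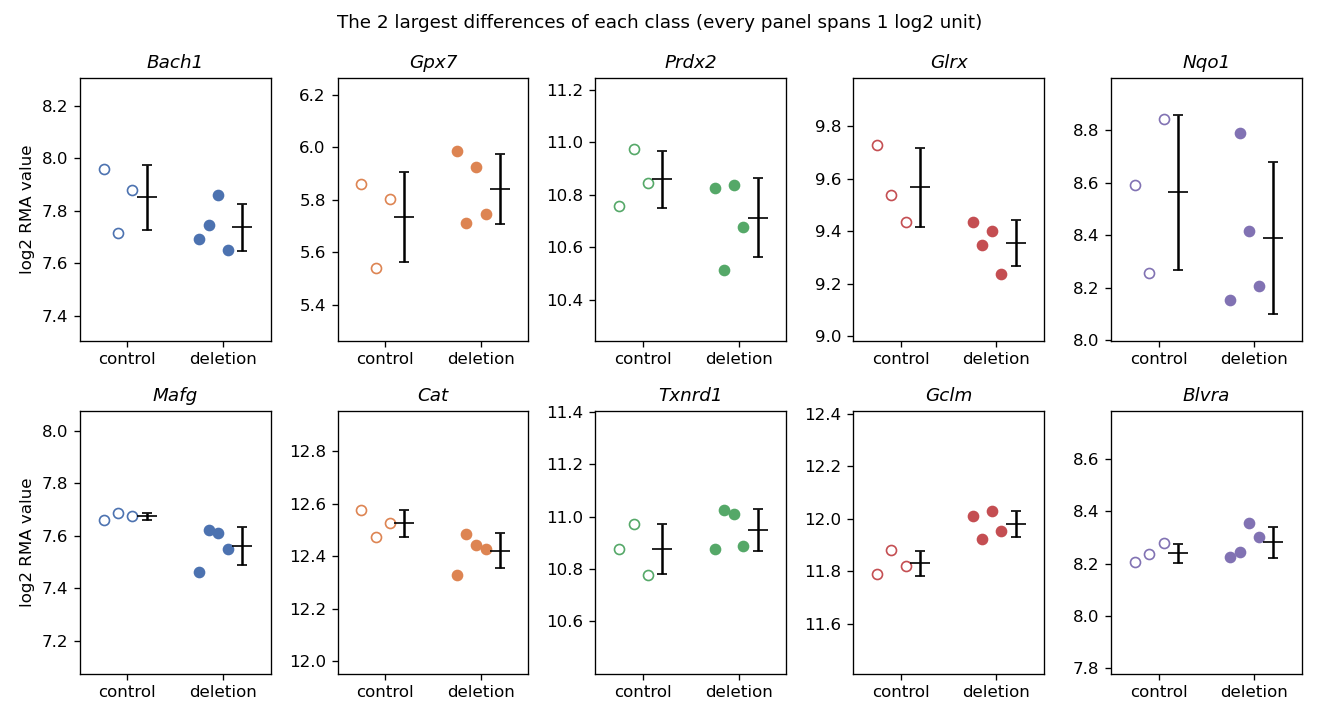
The 2 members of each class with the largest difference (columns, classes; y axis, log2 RMA value, each panel spanning 1 unit; points, arrays; bars, mean ± SD of 3 control and 4 deletion arrays). Gclm and Mafg are the panels whose groups do not overlap, and the SD bars of Nqo1 are the longest.

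NADPH for both systems comes in part from the pentose phosphate pathway, of which 2 enzymes were among the measured members. Pgd encodes its second dehydrogenase and read 11.63, 11.50 and 11.47 in the controls and 11.47, 11.60, 11.40 and 11.50 in the deletion arrays (difference -0.038, SE 0.07). Taldo1, the transaldolase of its sugar-exchange arm, read 10.61, 10.42 and 10.57 in the controls and 10.43, 10.64, 10.57 and 10.55 in the deletion arrays (difference 0.016, SE 0.08). Both sets of groups overlapped. Blvra encodes biliverdin reductase, which makes the antioxidant bilirubin from a heme product, and it read 8.21, 8.24 and 8.28 in the controls and 8.23, 8.24, 8.35 and 8.30 in the deletion arrays (difference 0.042, SE 0.06).

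Nqo1 encodes a quinone reductase that is widely used as a readout of NRF2 activity. It read 8.59, 8.26 and 8.85 on the control arrays and 8.15, 8.79, 8.41 and 8.21 on the deletion arrays. Control replicate 3 was the highest array and deletion replicate 1 the lowest, but deletion replicate 2 lay above 2 of the controls. The difference was -0.17 (SE 0.18), its 95% interval of -0.59 to 0.24 was the widest of the members, and the unadjusted limma p was 0.363. It was -0.03 without control replicate 3 and -0.33 without control replicate 2. Its 3 highest arrays, control replicates 1 and 3 and deletion replicate 2, were also the 3 highest of Cpa3, a mast cell protease gene singled out after its values were seen, which read 11.97, 9.53 and 11.95 in the controls and 9.998, 11.48, 10.46 and 9.88 in the deletion arrays. The summed log2 level of the 14 mast cell and basophil markers was highest on the same 3 arrays, at 80.5 to 81.8, and was 76.2 to 78.3 on the other 4. Other markers of that list peaked elsewhere. Ms4a2, Fcer1a and Mcpt8 were highest on deletion replicate 1, the lowest array of Nqo1. Tpsab1, Mcpt4 and Mrgprx2 peaked on control replicate 2, and Tpsb2 on deletion replicate 4. The rest of the list peaked on 1 of the 3 arrays named. The sum includes Cpa3 and Ms4a2, whose within-group SDs were 1.05 and 1.09 beside a list median of 0.195. It is thus no separate reading of the other markers. The part of mast cell genes in the Nqo1 values was not tested.

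The spread between arrays of a group set how much could be seen. The within-group SD of the members had a median of 0.0848 log2 units and ranged from 0.0348 to 0.292, and 28 of the 36 lay below the median of all genes, 0.126. The 8 above it were Nqo1 at 0.292, Srxn1 at 0.278, Mgst3 at 0.202, Txnip at 0.179, Mgst1 at 0.158, Gpx7 at 0.151, Prdx2 at 0.136 and Gss at 0.127. Nqo1 and Srxn1, both known NRF2 targets, did not peak on the same array, since Srxn1 was highest on control replicate 1 and Nqo1 on control replicate 3. The extremes of the members fell on all arrays, but unevenly. Control replicates 1 to 3 were the highest array for 7, 7 and 4 members. Deletion replicates 1 to 4 were the highest for 4, 5, 9 and 0. Among all genes, control replicates 1 to 3 were the highest for 13.2%, 19.2% and 15.3%. The shares of deletion replicates 1 to 4 were 14.2%, 13.5%, 12.1% and 12.6%. Control replicates 1 to 3 were the lowest array for 9, 6 and 5 members. Deletion replicates 1 to 4 were the lowest for 5, 3, 4 and 4. Among all genes, control replicate 1 was the lowest for 14.2%. Whether these counts depart from those of all genes was not tested.

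**Figure D4:**
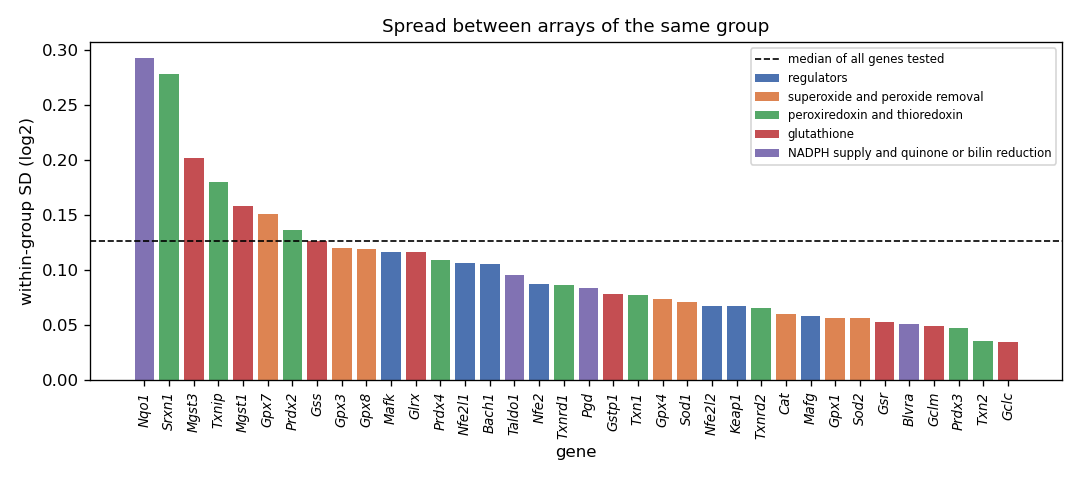
Within-group SD of each measured antioxidant gene (bars, log2 units, coloured by class), with the median of all genes tested as a dashed line at 0.126. Of the 36 bars 28 end below the line, and Nqo1 and Srxn1 stand above 0.27.

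Leaving out 1 array moved most of these small values. For 30 of the 36 members the difference moved by over 1.5 times in at least 1 of the 7 leave-outs, and for 18 it changed sign. Gclm, Glrx, Mafg, Cat, Bach1 and Prdx2 kept their sign in all 7. Mafk, Srxn1 and Gss, each with a difference over 0.05 in size, were among the 18, so the signs given for them hold for the 7 arrays together and not for each subset of them.

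Differences were also read against the promoter letters shown above. The 10 members with TGACNNNGC had a median difference of 0.040, with 7 higher and 3 lower in the deletion arrays, and the 23 without it had -0.00083, with 11 higher and 12 lower. All 5 members with TGAGNNNGC, the form added after the first search, read higher, by 0.013 to 0.071. Of the 28 without it 13 read higher, as did 52.2% of all genes. Among the 5, Nfe2l1, Srxn1 and Taldo1 changed sign when single arrays were left out, and Nfe2l1 and Taldo1 also after centring. The members with a match held both Gclm, at 0.15 (SE 0.06), and Mafg, at -0.11 (SE 0.07). No test was made of these splits, and every member with a match lay inside the 5th to 95th percentile of all genes.

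Genes that act around the members were taken as 8 further lists, of which 144 of 164 distinct genes were measured. None had an adjusted p under 0.05, where the lowest was 0.999, and 11 (7.64%) had an unadjusted limma p under 0.05, 6 higher and 5 lower, beside the 4.61% of all genes. Groups did not overlap for 14 (9.72%), beside 5.19%. Their median difference was 0.008, with 76 higher and 68 lower.

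Further NRF2 and BACH1 targets gave 12 higher and 10 lower of 22 measured, with a median of 0.018. Osgin1, an oxidative stress response gene, differed by 0.19 (SE 0.07) and Cyp2a5, a cytochrome P450 read from a dim probeset, by 0.18 (SE 0.07), both with an unadjusted p under 0.05 and with groups that did not overlap. Ptgr1, a reductase of lipid-derived aldehydes and ketones, differed by -0.51 (SE 0.21) and was the third target with an unadjusted p under 0.05. Hmox1, the heme oxygenase gene that BACH1 represses, read 9.86, 9.72 and 9.53 in the controls and 9.54, 9.58, 9.57 and 9.68 in the deletion arrays, a difference of -0.11 (SE 0.09). In heme breakdown and iron storage as a whole 4 of 6 genes read higher and 2 lower, and Hmox1 was the one with the smallest unadjusted p.

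Among genes that control NRF2 or BACH1, 5 of 18 read higher and 13 lower with a median of -0.024. The smallest unadjusted p was that of Syvn1, a ubiquitin ligase gene of the endoplasmic reticulum, at -0.14 (SE 0.06) with groups that did not overlap. The wider glutathione list had 16 of 25 higher and a median of 0.044, and Gstt2, a transferase gene, was its member with an unadjusted p under 0.05, at -0.31 (SE 0.11). In thioredoxin and protein repair 17 of 27 read higher with a median of 0.017, and Msrb2, a mitochondrial methionine sulfoxide reductase gene, was the one with an unadjusted p under 0.05, at 0.24 (SE 0.09).

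Genes listed under NADPH supply had the highest shares of these lists, split between directions. The unadjusted limma p was under 0.05 for 4 of 17 (23.5%, beside 4.61% of all genes). Groups did not overlap for 5 (29.4%, beside 5.19%). Being on the list does not show that an enzyme makes NADPH in these cells. Tktl2, a transketolase-like gene with a dim probeset, read 3.92, 4.01 and 3.94 in the controls and 4.28, 4.15, 4.36 and 4.28 in the deletion arrays, a difference of 0.31 (SE 0.07). Aldh1l1, a folate dehydrogenase gene with a dim probeset, differed by 0.25 (SE 0.09). Me2, a mitochondrial malic enzyme gene, read 11.72, 11.66 and 11.58 in the controls and 11.49, 11.42, 11.32 and 11.55 in the deletion arrays. Its difference was -0.21 (SE 0.08). H6pd, the pentose enzyme gene of the endoplasmic reticulum, differed by -0.18 (SE 0.08). The median of the list was 0.017, with 9 higher and 8 lower.

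Genes listed as sources of superoxide and peroxide had 9 of 21 higher and a median of -0.033. Mpo, the gene of myeloperoxidase, which uses peroxide to make hypochlorous acid, differed by 0.24 (SE 0.08) and was read from a dim probeset. Ero1a, an oxidase gene that makes peroxide while it forms disulfides, differed by -0.23 (SE 0.10). These 2 had an unadjusted p under 0.05. In selenoprotein synthesis, on which glutathione peroxidases and thioredoxin reductases depend, 5 of 10 genes read higher and none had an unadjusted p under 0.05. Its smallest p was that of Scly, the selenocysteine lyase gene, at -0.62 (SE 0.32).

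**Figure D5:**
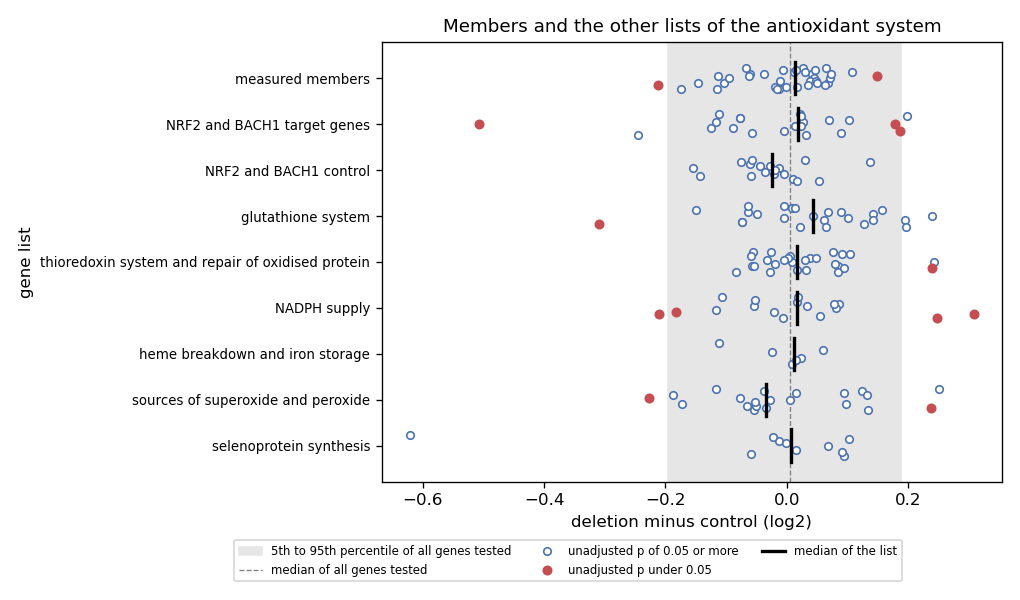
Differences between deletion and control arrays (x axis, log2) for the 36 measured members and the 8 further lists (rows; points, genes; filled, unadjusted limma p under 0.05; black bars, list medians), with the 5th to 95th percentile of all genes in grey and their median dashed. Most points of every list lie in the grey band, and the NADPH supply row has 2 filled points on either side.

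Markers of other cells were checked beside these results, since in bulk RNA fewer cells of a type and less RNA per cell cannot be told apart. An unadjusted p under 0.05 was found for 1 of 11 erythroid, 1 of 14 mast cell and basophil, 1 of 12 myeloid, 2 of 7 megakaryocyte, 1 of 8 lymphoid and 1 of 9 stromal and endothelial markers, beside 4.61% of all genes, and none had an adjusted p under 0.05. These shares, from 7.14% of the mast cell list to 28.6% of the megakaryocyte list, rest on 1 or 2 genes each. The summed log2 levels overlapped between the groups for 5 of the 6 lists, for example 117.9 to 119.8 in the controls and 117.3 to 120.1 in the deletion arrays for the erythroid list and 76.9 to 81.8 and 76.2 to 80.5 for the mast cell list. The lymphoid sum was 37.144 to 37.655 in the controls and 36.590 to 37.141 in the deletion arrays. The deletion arrays lay below the controls by a narrow margin, with 3 of the 8 lymphoid markers higher and 5 lower. Most of these probesets were dim, below the column medians of 5.42 to 5.46. RMA values carry no detection call, so no marker can be called absent, and the part of these markers in any difference above was not tested.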

How the data were processed

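RNA of the G1E line was read on 7 Affymetrix Mouse Gene 2.0 ST arrays (transcript version), 3 control and 4 Lockd deletion, grouped by the labels. The values were deposited as log2 probeset signals from RMA, a background correction, quantile normalization and summary over probes. The submitters' processing notes name RMA and Affymetrix Expression Console. RMA leaves no counts or detection calls. The version of that software and the genome build were not given in the sources used here. Of 41345 probesets 23521 carried exactly 1 gene symbol in the platform annotation, 1814 carried several and 16010 were not listed.

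Deletion was compared with control in limma 3.58.1 under R 4.3.3 (lmFit and eBayes, group as the only term, two-sided test). Benjamini-Hochberg adjustment covered all 23521 probesets, and the threshold was an adjusted p under 0.05. Gene counts use 1 probeset a gene, the one with the highest mean. A difference is deletion minus control in log2 units with its standard error, and intervals are 95%. Precision is limited by how few arrays there are. The fit was tested on simulated data. The deletion arrays are numbered 1 to 4 in their titles, which are used in the text, and 2 to 5 in the same order in their descriptions, while control numbers are the same in both. No label says that arrays of the same number are pairs. Such arrays correlated in their deviations from the group means at 0.025, 0.061 and -0.098 by title and at -0.17 and -0.099 by description. Over all pairs of a control and a deletion array the values ran from -0.17 to 0.17. With so few arrays these weak values cannot show whether the samples were paired.

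All measured members were named by class. Array values, difference and standard error were to be given for those with an unadjusted p under 0.05, with groups that do not overlap, with the 2 largest differences of a class, or moved over 1.5 times without 1 array, and for Nfe2l2, Keap1 and Bach1. The few others are given the same way. From the further lists, genes with an unadjusted p under 0.05 or else the smallest p were named, and Klf1, Gata1, Cdkn1b and Hmox1 were added as reference genes. The members and lists were chosen with earlier results of these data known. The alternatives tried were all probesets, filters on dim probesets, trended and robust variance, a second quantile normalization, median centring, array weights, replicate blocks, the mean of a gene's probesets and leaving out each array.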

Additional observations from a re-analysis of the deposited data

Results flagged for a closer look

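The Lockd value of deletion replicate 3, 4.173 log2 units, lay apart from the other deletion arrays, which read 5.09, 5.15 and 5.15, all of them dim readings. It is the value meant in what follows. It was picked out because its gap to the nearest array, over the range of the 4, was above Dixon's 95% critical value. Of 48 genes checked in this way 1 was picked out, and of the 36 antioxidant members 0 were, while chance alone picks about 1 in 20 groups. On the same array Mgst3 was the highest and Mgst1, read from a dim probeset, the lowest of the 7 arrays, as given above. Without that array the Mgst3 difference was -0.07 and the Mgst1 difference 0.08.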

How the results depend on the processing

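The count of members with an adjusted p under 0.05 was 0 in every setting tried, with a lowest adjusted p of 0.86 over the other settings and 0.664 over the leave-outs (limma). Of 355 member differences under the other settings 330 kept their direction and 25 changed it, and of 252 with 1 array left out 224 kept it and 28 changed it. The further genes named kept theirs in all 132 and 98, but most were picked for a small unadjusted p on these same arrays. Their kept signs are thus no separate support. The cause of the changes was not tested. The filters on dim probesets left out dim members, which then have no value.

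The number of members with an unadjusted p under 0.05, 2 as reported, was 0 with all probesets tested, 1 with arrays centred on their medians, 0 with the replicate block by title number, 0 with the replicate block by description number, and 0 to 1 with 1 array left out. The number whose groups did not overlap was 1 after centring and 2 to 7 with 1 array left out. The share of all genes was not taken for these counts, and with fewer arrays groups more easily fail to overlap. No result about the members is therefore read from them. The blocks are a check here, as no label says that arrays of the same number are pairs. The one by description, added after the data were seen, rests on 2 shared numbers. The median difference of the members was -0.00957 after centring and ran from -0.00993 to 0.0223 over the leave-outs, and that of superoxide and peroxide removal was -0.0163 after centring and -0.0196 to 0.0266 over the leave-outs. Lockd lost its call with all probesets tested (-3.02, adjusted p = 0.0991) and under the replicate blocks by title (-3.1, adjusted p = 0.109) and by description (-2.8, adjusted p = 0.0771), and ran from -3.1 to -2.78 over the leave-outs (adjusted p = 6.17e-05 to 0.106). Cdkn1b lost its call under the same 3 settings (adjusted p = 0.141, 0.68 and 1, limma), and the blocks changed no other call.

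Signs turned for Gpx4 (0.00412) after a second quantile normalization and for Keap1 (-0.000264) with the mean of its probesets. After centring they turned for Nfe2l1 (-0.011), Sod2 (-0.00813) and Taldo1 (-0.00739). With array weights they turned for Gpx4 (0.00796), Gpx8 (0.00604), Srxn1 (-0.0578), Txn1 (-0.000392), Txnip (0.0123) and Taldo1 (-0.0164). Under the replicate block by description number they turned for Nfe2l1 (-0.00279), Nfe2l2 (-0.0367), Keap1 (-0.00315), Mafk (-0.0483), Sod1 (-0.0333), Gpx4 (0.0173), Prdx4 (0.0184), Txnrd2 (-0.00225), Txnip (0.0676), Gsr (0.00265), Mgst1 (0.09), Mgst3 (-0.162), Pgd (0.0549) and Blvra (-0.0222). With 1 array left out the lowest and highest differences of the 18 members that changed sign were -0.0509 and 0.0281 for Nfe2, -0.0297 and 0.0739 for Nfe2l1, -0.00945 and 0.0771 for Nfe2l2, -0.0292 and 0.0585 for Keap1, -0.00516 and 0.118 for Mafk, -0.0104 and 0.0798 for Sod1, -0.0275 and 0.0415 for Sod2, -0.0287 and 0.0427 for Gpx4, -0.0741 and 0.0436 for Gpx8, -0.0833 and 0.294 for Srxn1, -0.00915 and 0.0841 for Txn1, -0.115 and 0.0968 for Txnip, -0.166 and 0.000532 for Gss, -0.0443 and 0.0159 for Gsr, -0.0779 and 0.0822 for Mgst1, -0.0702 and 0.122 for Mgst3, -0.0728 and 0.0115 for Pgd, and -0.0421 and 0.0566 for Taldo1.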
